A study of Mus musculus with 10 samples.

Results

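Translation initiation and elongation factors are the proteins that place ribosomes on mRNAs and move them along. They were taken here as the rows of the deposited table whose gene symbol starts with Eif or Eef, with the eIF4E-binding proteins, the eIF2 alpha kinases, the Y-linked Eif2s3y and pseudogenes left out. That rule gave 58 of the 11790 genes in the table, and all 58 passed the filter of a mean of at least 1 FPKM (fragments per kilobase of exon, scaled by library size). RNA came from heart tissue of 10 randomly fed mice, 10 to 11 weeks old. In 5 of them, A-PDK1KO, 3-phosphoinositide-dependent kinase 1 (PDK1) was knocked out specifically in adipocytes, and the 5 controls were PDK1 flox/flox mice. The controls therefore carry the floxed alleles. The promoter that drives the recombinase, the sex of the mice and whether littermates were used were not given in the sources used here. PDK1, the product of Pdpk1, phosphorylates AKT downstream of the insulin receptor.

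Initiation begins when eIF2 brings the initiator tRNA to the small ribosomal subunit, together with eIF1, eIF1A, eIF3 and eIF5. The eIF4 factors bind the cap of the mRNA and unwind its leader, and eIF5B joins the large subunit. During elongation eEF1A delivers aminoacyl-tRNAs, the eEF1B subunits recharge it with GTP, and eEF2 moves the ribosome by one codon at a time. In heart and skeletal muscle the eEF1A2 isoform largely takes the place of eEF1A1 after birth. Insulin acts on this machinery through AKT and mTORC1, and eEF2 kinase, which inactivates eEF2, is restrained by that route.

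Hearts of the same group differed in some respects that the labels do not give. The recovered library sizes were 9249255 to 11384423 counted reads per heart. In A-PDK1KO heart 2, 10723 genes reached 1 FPKM, and in the remaining hearts 9671 to 10214 did, with control heart 4 the highest of these. The atrial gene Myl7 was under 10 FPKM in 6 hearts, 3 per group, and higher in control hearts 2 and 5 and A-PDK1KO hearts 3 and 5. The 4 atrial markers (Myl7, Myl4, Sln and Nppa) summed to 214 to 579 FPKM in the control group (median 435). In the A-PDK1KO group they summed to 184 to 268 FPKM (median 230.4). Control hearts 1 and 3 and A-PDK1KO heart 4, with Myl7 at 0 FPKM, also lay in these ranges. The sums therefore do not follow Myl7 alone. Atrial tissue as a covariate means, below, log2(FPKM + 1) of Myl7 alone, and the 6 hearts were also chosen on Myl7. The part of the difference in the summed atrial markers in the results was not tested. All 5 cardiomyocyte markers had values, with summed levels of 7333 to 9427 FPKM (control, median 8921) and 7116 to 8511 FPKM (A-PDK1KO, median 7656). The 5 red cell markers summed to 27.9 to 1391 FPKM in controls, highest in control heart 1, and to 68.6 to 228 FPKM in A-PDK1KO hearts. Summed endothelial markers (5 of 5 with values) were 77.4 to 92.2 FPKM (control) and 84.9 to 99.0 FPKM (A-PDK1KO), and 0 of the markers tested were called. The 3 lymphocyte, 5 adipocyte and 2 Schwann cell markers that were sought had no row in the deposited table, so no levels can be given for them. Pdpk1 itself was at 3.77, 3.77, 3.54, 3.54 and 3.14 FPKM in control hearts 1 to 5 and at 2.73, 4.04, 3.64, 3.70 and 3.17 FPKM in A-PDK1KO hearts 1 to 5. The groups overlapped, and because the deletion was made in adipocytes, heart RNA does not check it.

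None of the 58 genes passed the test between genotypes. The nearest was Eef2k, the eEF2 kinase gene, which was 1.35 times as high in A-PDK1KO hearts and missed the threshold narrowly. The ratio of the helicase gene Eif4a2 to its paralogue Eif4a1 was higher in every A-PDK1KO heart than in every control heart. Its adjusted p (0.0317, exact permutation) is over 4 ratios only, fixed with earlier results known, and was 0.0635 without A-PDK1KO heart 1, 2, 4 or 5. Eif4a2 itself did not pass (adjusted p = 0.160 by limma). Genes of the eEF1 complex, Eif5a and Eif2s1 had lower means in A-PDK1KO hearts, by at most 1.20 times, and did not pass. Genes were compared with limma on log2(FPKM + 1), A-PDK1KO minus control, with Benjamini-Hochberg adjustment over all 9987 genes tested and a threshold of 0.05. In that test 208 genes, 2.08% of those tested, were called (121 higher, 1.21%, and 87 lower, 0.871%), against 0 of 58 translation factor genes. At an unadjusted p under 0.05 there were 10 of 58 translation factor genes (17.2%, 4 higher and 6 lower) and 15.6% of all genes (8.53% higher and 7.03% lower). The median log2 fold change was -0.02 over the 58 genes and 0.02 over all genes tested, and 35 of the 58 (60.3%) lay below 0, against 45.4% of all genes. That median was 0.00 with quantile normalization (29 of 58 below 0) and 0.01 without control heart 4 (28 of 58 below 0). The groups did not overlap for 3 of the 58 genes (5.17%; Eef2k and Eef2kmt higher, Eif5a lower), against 4.96% of all genes tested (2.72% higher and 2.23% lower). Each of these shares of calls and of separated genes lies near its background. In RNA from whole tissue, fewer cells of a type and less RNA per cell cannot be told apart.

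**Figure D1:**
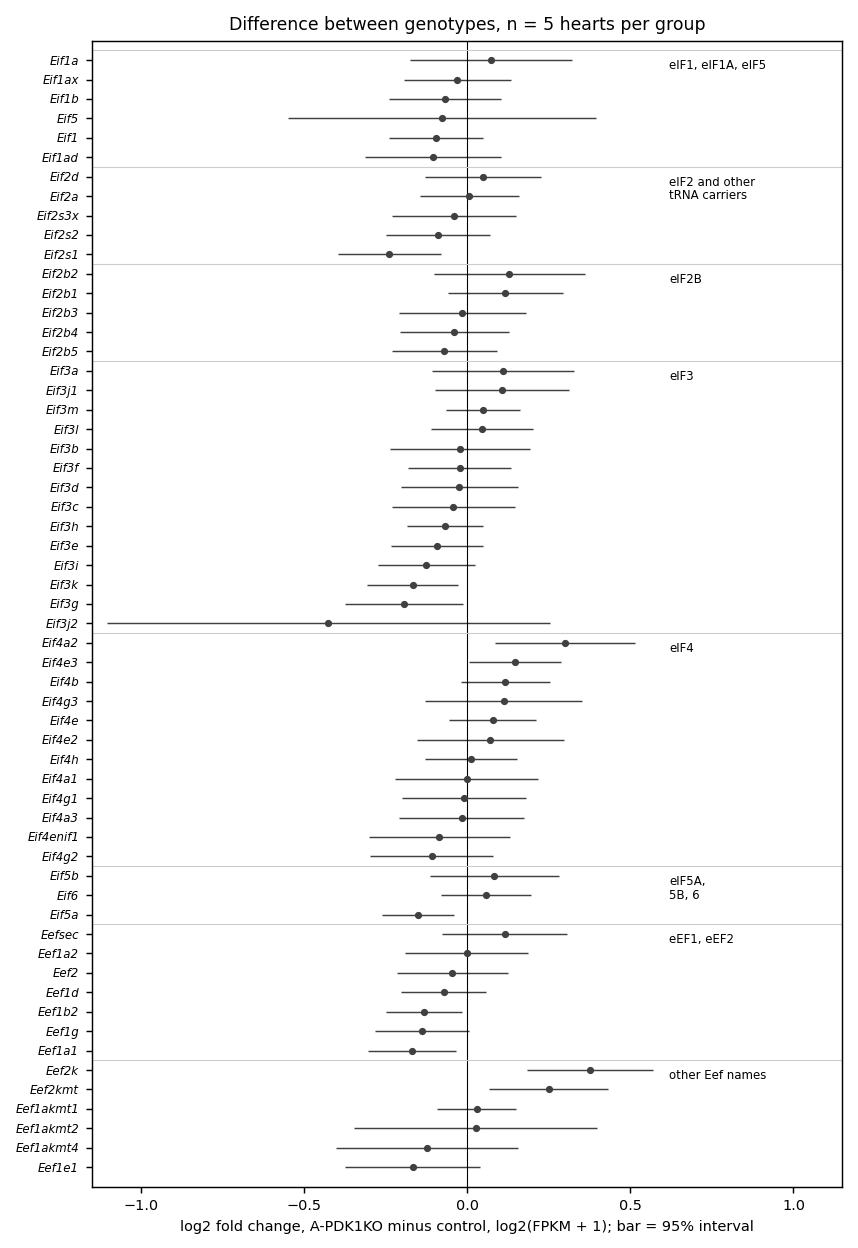
Log2 fold change (A-PDK1KO minus control, on log2(FPKM + 1)) of each of the 58 genes, with its 95% interval, grouped by complex, n = 5 hearts per group. Most intervals cross 0, Eef2k has the highest value (0.38), and Eif3j2 has the lowest (-0.43) with the widest interval.

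The genes spanned a wide range of levels. Eef1a2 was the highest, with a mean of 580.2 FPKM over the 10 hearts, and Eefsec, which carries selenocysteine tRNA to the ribosome, was the lowest at 1.10 FPKM. Of the 58 genes, 6 had a mean over 100 FPKM (Eef1a2, Eef2, Eif1, Eef1a1, Eif5a and Eif3h), 32 lay from 10 to 100 FPKM and 20 lay under 10 FPKM. FPKM values are per length, so these levels can be set beside each other, although the isoform lengths used by the heart were not measured. The 8 highest genes held 68% of the summed FPKM. The median coefficient of variation between hearts of a group was 9.78% in controls and 7.93% in A-PDK1KO hearts. In the order of levels, Eif1 (mean 288 FPKM) and Eef1a1 (270 FPKM) were neighbours whose ranges over hearts overlapped, while the lowest Eef1a2 value (458 FPKM) stood above the highest Eef2 value (378 FPKM).

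**Figure D2:**
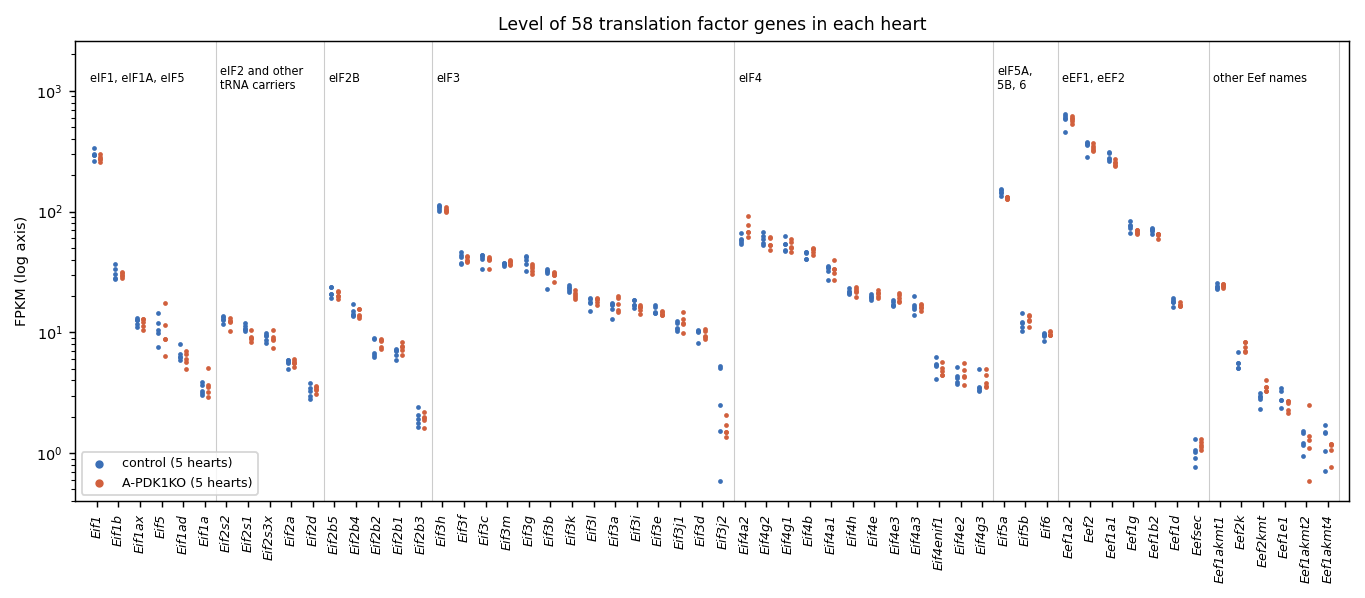
FPKM (log axis) of each of the 58 genes in each of 5 control and 5 A-PDK1KO hearts, ordered by mean level within each complex. The elongation factor genes Eef1a2, Eef2 and Eef1a1 and the initiation factor gene Eif1 stand highest, and 4 genes have means under 2 FPKM.

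RefSeq promoter stretches are shown for the genes on which the values below turn: the kinase gene closest to the threshold, and the helicase and eEF1A paralogue pairs. The RefSeq table (build GRCm38.p6, the assembly known as mm10) matched 46 of the 58 genes with 60 promoters. Each stretch runs from 100 bases before an annotated start, in lower case, to the first 15 transcribed bases, in capitals, and reads 5′ to 3′ on the gene's own strand. They lie at chr7:120842731-120842845 (plus strand) for the first of 3 Eef2k starts, chr11:69672409-69672523 (minus) for Eif4a1, chr16:23107368-23107482 (plus) for Eif4a2, chr9:78481710-78481824 (minus) for Eef1a1 and chr2:181157001-181157115 (minus) for Eef1a2.
Eef2k: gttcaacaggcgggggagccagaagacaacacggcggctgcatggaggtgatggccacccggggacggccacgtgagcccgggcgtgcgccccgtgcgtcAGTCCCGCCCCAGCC
Eif4a1: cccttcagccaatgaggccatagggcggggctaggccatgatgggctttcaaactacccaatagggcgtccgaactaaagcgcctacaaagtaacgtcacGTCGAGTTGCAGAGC
Eif4a2: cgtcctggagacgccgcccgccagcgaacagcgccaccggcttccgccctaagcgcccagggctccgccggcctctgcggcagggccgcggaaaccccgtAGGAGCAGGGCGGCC
Eef1a1: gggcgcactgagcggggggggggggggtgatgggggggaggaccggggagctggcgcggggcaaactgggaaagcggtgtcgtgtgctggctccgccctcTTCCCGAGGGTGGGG
Eef1a2: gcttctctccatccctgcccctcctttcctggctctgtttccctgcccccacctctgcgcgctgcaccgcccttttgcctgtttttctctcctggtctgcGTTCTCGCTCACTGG

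The first Eef2k stretch holds the letters CACGTG, the E-box of MYC and its relatives, with its first base 31 bases before the start. CACGTG, which reads alike on both strands, was found in 14 of the 60 promoters of these genes (23.3%), each running from 250 bases before to 50 bases after the start. It was in 7.15% of all 32851 promoters in the RefSeq table and in 10.2% of the 9436 promoters of tested genes. The ETS core CCGGAAG, searched on both strands, was in 17 of 60 (28.3%), against 8.86% of all promoters and 17.9% of those of tested genes. The FoxO core GTAAACA, on both strands, was in 0 of 60, against 3.65% and 2.43%. The TATA box core TATAAA, on both strands, was in 4 of 60 (6.67%), against 13.6% and 7.35%. These are descriptions of letters in a window: promoters of 1 gene can overlap, and no difference was tested.

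mRNAs of many translation factors carry a terminal oligopyrimidine (TOP) tract, a C at the start followed by further C or T, through which mTORC1 controls their translation. An annotated start of C followed by at least 4 C or T was found in 2 of the 60 promoters (3.33%), those of Eif2s3x and Eif3f, against 2.51% of all promoters. Both are printed because they alone among the matched genes have such a start, at chr7:108934315-108934429 (plus) and chrX:94212637-94212751 (minus).
Eif3f: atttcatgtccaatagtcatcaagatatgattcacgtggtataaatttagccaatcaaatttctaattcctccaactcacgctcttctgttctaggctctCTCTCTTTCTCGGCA
Eif2s3x: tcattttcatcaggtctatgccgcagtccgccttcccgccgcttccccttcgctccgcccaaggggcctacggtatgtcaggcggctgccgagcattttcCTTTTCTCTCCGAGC

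A start annotated a few bases away would not show the tract, so the search says nothing about the other genes. The Eif3f stretch also holds CACGTG and TATAAA. Neither gene differed beyond its spread: Eif3f was at 41.2 ± 4.04 FPKM in controls and 40.4 ± 2.12 in A-PDK1KO hearts (mean ± SD, n = 5 per group), and Eif2s3x at 9.12 ± 0.721 and 8.87 ± 1.09 FPKM. A list of 9 factor genes known from other work as TOP mRNAs held Eef1a1, Eef1b2, Eef1d, Eef1g, Eef2, Eif3e, Eif3f, Eif3h and Eif4b. Of these 8 lay below 0 and 1, Eif4b, above, against 45.4% of all genes tested below 0. With quantile normalization 5 lay below 0, since Eef2 (0.04), Eif3f (0.05) and Eif3h (0.01) turned positive. The median log2 fold change was -0.07, against -0.01 over the other 49. Of the 9 genes 0 were called, and the smallest limma adjusted p was 0.201.

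The set of eIF1, eIF1A and eIF5 genes, which act in the choice of the start codon, held 6 genes, with Eif1ad placed there by its name only. Of these, 5 lay below 0 and 0 had an unadjusted p under 0.05. Eif1, which keeps the scanning ribosome open, was at 300.4, 294, 295, 333.8 and 265 FPKM in control hearts 1 to 5 and at 257, 285, 275, 299.6 and 273 FPKM in A-PDK1KO hearts 1 to 5. The groups overlapped, with control heart 4 highest and A-PDK1KO heart 1 lowest, and the log2 fold change was -0.10 ± 0.07 (SE, adjusted p = 0.544 by limma). Annotated transcripts of 13 other genes share a near-identical stretch with Eif1, and reads may be split between them. Its paralogue Eif1b was at 33.7, 27.8, 30.6, 37.0 and 28.5 FPKM in controls and at 28.1, 31.4, 29.8, 30.8 and 29.4 in A-PDK1KO hearts, all A-PDK1KO values lying within the control range. The ratio of Eif1b to Eif1 was 0.106 ± 0.00708 in controls and 0.108 ± 0.00276 in A-PDK1KO hearts (log2 difference 0.03, p = 0.683 by exact two-sided permutation, n = 5 per group, adjusted p = 0.683 over 4 ratios).

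Eif5, whose product makes eIF2 hydrolyse its GTP, varied more between hearts of a group than any other gene of this family above 10 FPKM. It was chosen for description after its values were seen. Its level was 12.0, 10.4, 9.83, 14.5 and 7.51 FPKM in controls and 6.38, 17.4, 8.79, 11.6 and 8.76 in A-PDK1KO hearts. The highest values were in A-PDK1KO heart 2 and control heart 4, and the coefficients of variation were 24.0% and 40.0%. Ppp1r15a encodes the stress-induced partner of the eIF2 alpha phosphatase. It was highest in the same hearts of each group, at 5.49 FPKM in control heart 4 and 6.95 FPKM in A-PDK1KO heart 2. Ppp1r15a was not called and did not have the smallest p of its list, and it is named only for this match. Control heart 4 held the highest value of all hearts for 19 translation factor genes, and A-PDK1KO heart 2 for 14. The match is therefore not particular to Ppp1r15a. The genotypes did not differ beyond the spread between hearts in Eif5 or Ppp1r15a.

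Initiator tRNA carriers comprised 5 genes, 3 below 0 and 2 above. Eif2s1 encodes eIF2 alpha, the subunit whose phosphorylation lowers general initiation. Its level was 10.7, 11.9, 10.6, 10.2 and 11.3 FPKM in controls and 9.04, 10.4, 9.20, 8.25 and 8.89 in A-PDK1KO hearts. Only A-PDK1KO heart 2 reached into the control range. The means were 11.0 ± 0.668 and 9.16 ± 0.785 FPKM (1.20 times as high in controls), with a log2 fold change of -0.24 ± 0.07 (SE, adjusted p = 0.125 by limma). The other subunits of the complex had means of 12.9 and 12.1 FPKM (Eif2s2) and 9.12 and 8.87 FPKM (Eif2s3x) in control and A-PDK1KO hearts, with adjusted p-values of 0.627 and 0.885. Eif2s3y, the Y-linked copy of the gamma subunit that the selection leaves out, was present in all 10 hearts, at 5.83 to 7.60 FPKM.

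The exchange factor eIF2B, which recharges eIF2 with GTP, has 5 subunits, and their genes ranged from 1.95 FPKM (Eif2b3, gamma) to 21.03 FPKM (Eif2b5, the catalytic epsilon subunit). Of the 5 genes 3 lay below 0 and 0 had an unadjusted p under 0.05. The smallest p was that of Eif2b1, the alpha subunit, at 7.04, 7.15, 6.55, 7.25 and 5.89 FPKM in controls and 7.56, 8.39, 7.08, 7.69 and 6.47 in A-PDK1KO hearts. The groups overlapped, and the log2 fold change was 0.12 ± 0.08 (SE, adjusted p = 0.542 by limma).

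eIF3, the largest initiation factor, holds the small subunit and the mRNA together. Its 14 genes ranged over 45.8 times in level, from Eif3j2 (2.31 FPKM) to Eif3h (106 FPKM), and 10 lay below 0 and 4 above, with a median log2 fold change of -0.03. Eif3h was at 101, 111, 109, 114 and 106 FPKM in controls and 101, 104, 98.3, 108 and 105 in A-PDK1KO hearts, which overlapped (adjusted p = 0.613). Eif3k, of the subunits at the edge of the complex, was at 22.6, 23.7, 24.5, 23.1 and 21.7 FPKM in controls and 20.4, 22.5, 19.8, 18.7 and 21.1 in A-PDK1KO hearts. In 4 of the 5 A-PDK1KO hearts Eif3k was below every control, and the log2 fold change was -0.17 ± 0.06 (SE, adjusted p = 0.229 by limma). Eif3g, an RNA-binding subunit named for its unadjusted p after its values were seen, had means of 38.8 ± 4.41 and 33.7 ± 2.44 FPKM (adjusted p = 0.294).

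In control heart 1, 5 of the 14 eIF3 genes had their lowest value of all 10 hearts. The share over all genes tested was not counted. Eif3b, a core subunit, was at 22.7 FPKM there and at 30.8 to 33.2 FPKM in the other controls. Eif3j2 is a near-identical copy of Eif3j1, and its reads may have been divided between the pair. It was at 2.50, 1.53, 5.27, 5.04 and 0.588 FPKM in controls, from 15 to 118 reads per heart over all hearts, and at 1.36 to 2.05 FPKM in A-PDK1KO hearts. Control hearts 3 and 4 were high and control heart 5 low, so its fold change is the least certain of the 58 (95% interval from -1.10 to 0.25). Eif3j1 was at 11.2 ± 0.906 FPKM in controls and 12.2 ± 1.74 in A-PDK1KO hearts.

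Of the 12 genes with an Eif4 name, not all of which act in binding the cap or opening the leader, 7 lay above 0 and 5 below. Their median log2 fold change was 0.04. Eif4a2 encodes a helicase that unwinds mRNA leaders and also acts in repression by microRNAs. Its level was 67.0, 59.8, 56.5, 57.7 and 54.1 FPKM in controls and 62.2, 92.0, 68.1, 77.4 and 67.4 in A-PDK1KO hearts. A-PDK1KO heart 2 was highest, and only A-PDK1KO heart 1 fell within the control range. The means were 59.0 ± 4.94 and 73.4 ± 11.8 FPKM (1.24 times as high), with a log2 fold change of 0.30 ± 0.10 (SE, adjusted p = 0.160 by limma), or 0.22 without A-PDK1KO heart 2. Exons of Eif4a2 (chr16:23107444-23114136 in mm10) overlap small nucleolar RNA genes and, on the opposite strand, Rfc4. The strand setting was not given in the sources used here. Eif4a2 also shares a near-identical stretch with 1 other gene, Gm2999, which has its own row in the deposited table.

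Eif4a1 encodes the closely related helicase of the cap-binding complex. It was at 35.1, 34.3, 32.3, 35.2 and 27.2 FPKM in controls and at 27.0, 40.0, 33.4, 33.3 and 31.0 in A-PDK1KO hearts. The groups overlapped, with means of 32.8 ± 3.35 and 32.9 ± 4.71 FPKM and a 95% interval of the log2 fold change from -0.22 to 0.22. Both genes were high in A-PDK1KO heart 2, and a ratio within each heart does not depend on the library's scaling.

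The ratio of Eif4a2 to Eif4a1 was 1.91, 1.74, 1.75, 1.64 and 1.99 in control hearts 1 to 5 and 2.30, 2.30, 2.04, 2.33 and 2.18 in A-PDK1KO hearts 1 to 5. All 5 A-PDK1KO hearts lay above all 5 controls, the nearest being A-PDK1KO heart 3 and control heart 5. The ratio rose from 1.80 ± 0.141 to 2.23 ± 0.121 (SD, n = 5 per group), a log2 difference of 0.31 ± 0.06 (SE). The exact two-sided permutation test gave p = 0.00794, the smallest that 5 hearts against 5 can give, and an adjusted p of 0.0317 over the 4 ratios. An alternative chosen after seeing the data counted the reads of the near-identical pseudogene Eif4a-ps4 (16.5 to 19.9 FPKM) to Eif4a1. It gave ratios of 1.56 ± 0.117 and 1.93 ± 0.102, again without overlap and with the same p. Gm2999 was not counted to Eif4a2 in either version, and Eif4a-ps4 is only 1 of 3 genes that share such a stretch with Eif4a1. The part of split reads in this ratio was therefore not fully tested. Without A-PDK1KO heart 1, 2, 4 or 5 the log2 difference was 0.29 to 0.31 and the adjusted p was 0.0635. The pair was one of 4 fixed with earlier results of these data known.

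**Figure D3:**
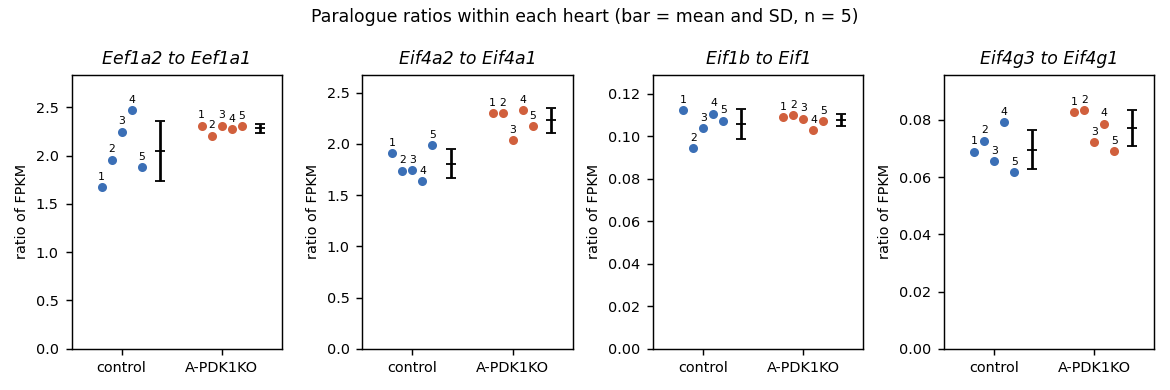
Ratio of FPKM between paralogues within each heart, with the mean and SD of 5 control and 5 A-PDK1KO hearts (digits are replicate numbers). The ratio of Eif4a2 to Eif4a1 separates the groups, at 1.64 to 1.99 against 2.04 to 2.33, and the other 3 ratios overlap.

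Eif4g1 and Eif4g3 encode the scaffold proteins that join the cap-binding protein to the helicase. Eif4g1 was at 47.1, 48.1, 53.6, 62.3 and 53.8 FPKM in controls and 46.1, 59.2, 50.1, 56.2 and 51.2 in A-PDK1KO hearts. Eif4g3 was at 3.24, 3.49, 3.52, 4.94 and 3.32 FPKM in controls and 3.82, 4.93, 3.62, 4.42 and 3.54 in A-PDK1KO hearts. Both genes were highest in control heart 4 and, among A-PDK1KO hearts, in heart 2. The ratio of Eif4g3 to Eif4g1 was 0.0696 ± 0.00675 in controls and 0.0772 ± 0.00631 in A-PDK1KO hearts (log2 difference 0.15, p = 0.119 by exact two-sided permutation, n = 5 per group, adjusted p = 0.18).

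Among the cap-binding proteins, Eif4e had means of 19.7 ± 0.864 and 20.9 ± 1.22 FPKM (adjusted p = 0.598) and Eif4e3 means of 17.3 ± 0.855 and 19.3 ± 1.35 FPKM (adjusted p = 0.302). Eif4e3 is named for its unadjusted p, after its values were seen. Eif4b, a cofactor of the helicase, was at 43.9 ± 2.82 and 47.7 ± 2.46 FPKM (adjusted p = 0.398). Of the 12 genes, 6 had their highest value of all hearts in A-PDK1KO heart 2 and 5 in control heart 4. Over all 58 genes these hearts held 14 and 19 of the highest values. Control heart 1 and A-PDK1KO heart 1 held 12 of the lowest values each. The same counts were not made over all genes tested, so they are not known to be particular to these genes. A-PDK1KO heart 2 and control heart 4 also had the most genes at 1 FPKM or more (10723 and 10214).

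**Figure D4:**
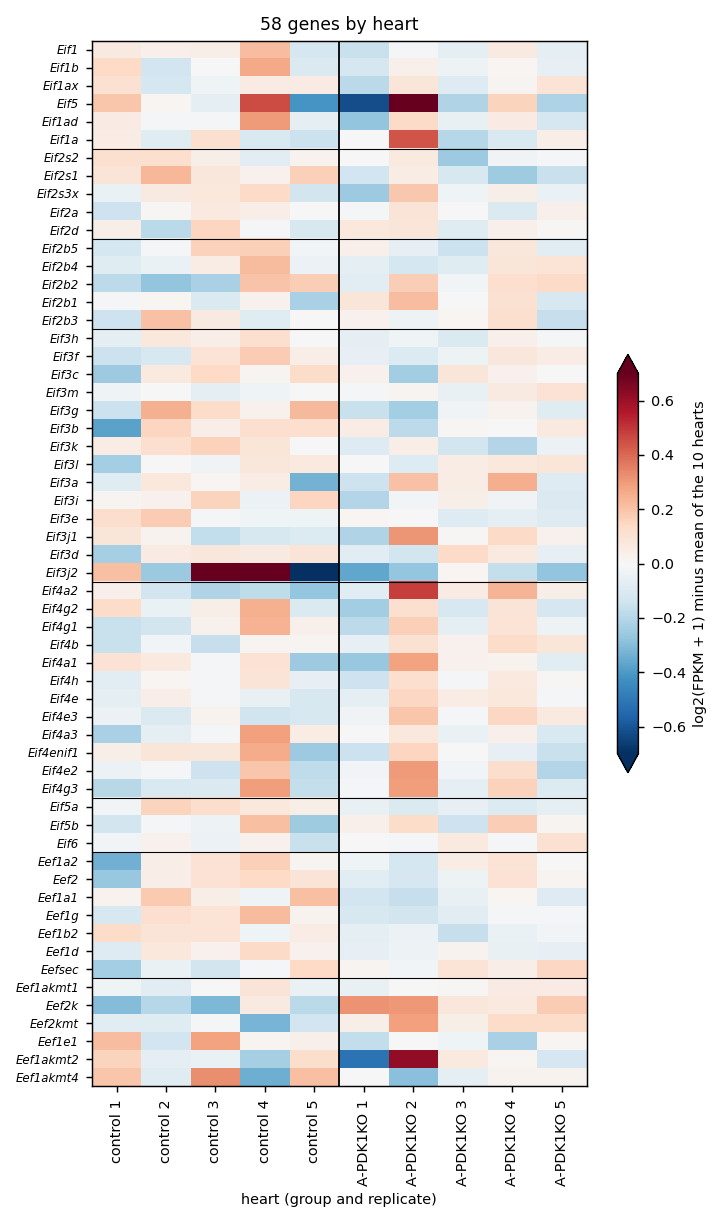
Level of each of the 58 genes in each heart as log2(FPKM + 1) minus the gene's mean over the 10 hearts, on a colour scale that saturates at its ends, with lines between complexes and between groups. Control heart 4 and A-PDK1KO heart 2 stand out with high values of Eif5 and several eIF4 genes, and control heart 1 with low values of Eif3b, Eef1a2 and Eef2.

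Eif5a encodes the factor that carries hypusine, a modified lysine, and relieves ribosomes stalled on stretches such as prolines. Its level was 135, 153, 149.9, 145 and 141 FPKM in controls and 132, 128, 132, 128 and 131 in A-PDK1KO hearts. Every A-PDK1KO heart lay below every control, by a small margin against control heart 1. The means were 145 ± 6.98 and 130.3 ± 2.02 FPKM (1.11 times as high in controls), with a log2 fold change of -0.15 ± 0.05 (SE, adjusted p = 0.167 by limma). The other genes of this set, Eif5b and Eif6, whose product keeps free large subunits from joining, had adjusted p-values of 0.731 and 0.728.

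Of the 7 elongation factor genes proper, 6 lay below 0, with a median log2 fold change of -0.07. With quantile normalization 4 of the 7 lay below 0, since Eef2 (0.04) and Eef1a2 (0.00326) turned positive. On the TPM scale, with scaling that omits mitochondrially encoded and haemoglobin genes, and with the atrial covariate, 5 of the 7 lay below 0, since Eef1a2 turned positive (0.00741, 0.0175 and 0.00300). Eef1a1 was at 273, 305, 276, 263 and 311 FPKM in controls and 245, 239.9, 259, 271 and 251.9 in A-PDK1KO hearts. Control hearts 2 and 5 were high, and only A-PDK1KO heart 4 exceeded the lowest control. The means were 286 ± 21.02 and 253 ± 12.5 FPKM, with a log2 fold change of -0.17 ± 0.06 (SE, adjusted p = 0.201 by limma). Annotated transcripts of 9 other genes, 3 of them in the table, share a near-identical stretch with Eef1a1.

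Eef1a2 was at 458, 598, 621, 649 and 584 FPKM in controls and 565, 529.5, 599.5, 618 and 580.0 in A-PDK1KO hearts. Control heart 1 was lowest, and all 5 A-PDK1KO values lay within the control range. The means were 582 ± 73.5 and 578 ± 33.8 FPKM, with a 95% interval of the log2 fold change from -0.19 to 0.19. The muscle isoform thus stood at 2.05 ± 0.313 times Eef1a1 in controls and 2.28 ± 0.0436 times in A-PDK1KO hearts. Per heart the ratio was 1.68, 1.96, 2.25, 2.47 and 1.88 in controls and 2.31, 2.21, 2.31, 2.28 and 2.30 in A-PDK1KO hearts, the latter inside the control range. The log2 difference was 0.17 (p = 0.135 by exact two-sided permutation, n = 5 per group, adjusted p = 0.18). Without control heart 4 it was 0.24 with an adjusted p of 0.0317, so this comparison rests on that heart.

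Eef2, the translocase, was at 285, 353, 368, 378 and 364 FPKM in controls and 324, 315, 333.4, 368 and 347 in A-PDK1KO hearts. Control heart 1 was the lowest of all hearts and the groups overlapped (log2 fold change -0.05 ± 0.08 SE, adjusted p = 0.844 by limma). The eEF1B subunit genes Eef1b2 and Eef1g encode proteins that recharge eEF1A and anchor the complex. Eef1b2 was at 73.0, 71.0, 71.3, 65.4 and 69.2 FPKM in controls and 63.8, 64.8, 59.6, 64.7 and 65.9 in A-PDK1KO hearts. Only A-PDK1KO heart 5 exceeded the lowest control, and the log2 fold change was -0.13 ± 0.05 (SE, adjusted p = 0.255 by limma). Eef1g was at 66.0, 77.7, 76.4, 83.7 and 72.7 FPKM in controls and 66.0, 65.2, 67.9, 71.0 and 70.9 in A-PDK1KO hearts, with control heart 1 as low as the A-PDK1KO hearts (adjusted p = 0.347).

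The other Eef names belong to enzymes that modify the elongation factors and to Eef1e1, a subunit of the tRNA synthetase complex. Eef2k (chr7:120842831-120907450 in mm10) encodes the calcium- and calmodulin-dependent kinase that inactivates eEF2. Its level was 5.11, 5.57, 5.05, 6.86 and 5.61 FPKM in control hearts 1 to 5 and 8.35, 8.31, 6.96, 6.89 and 7.52 FPKM in A-PDK1KO hearts 1 to 5, from 350 to 600 reads per heart. Every A-PDK1KO heart lay above every control, although control heart 4 (6.86 FPKM) came close to A-PDK1KO heart 4 (6.89 FPKM). The means were 5.64 ± 0.728 and 7.61 ± 0.703 FPKM (SD, n = 5 per group), and the log2 fold change was 0.38 ± 0.09 (SE), with a limma adjusted p of 0.0501. That lies just above the threshold of 0.05. Eef2k was called under 6 of 11 other settings: a pseudocount of 0.1 (2.03% of all genes called), a minimum of 5 FPKM (5.08%), quantile normalization (2.47%), median-of-ratios factors (2.07%), scaling without mitochondrially encoded and haemoglobin genes (3.14%) and voom on recovered reads (2.34%). It was also called without control heart 4 (1.51%). It was not called with no filter (1.51%), on the TPM scale (0.621%), with atrial tissue as a covariate (1.89%), with the replicate block (1.53%) or among the 6 hearts with low Myl7 (0.0397%), nor without any other single heart. Over all these settings and omissions its log2 fold change was 0.35 to 0.44, with adjusted p-values from 0.0218 to 0.426. A predicted gene, Gm15774, overlaps its exons on the opposite strand.

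Eef2kmt, named after its values were seen because its groups did not overlap, encodes a methyltransferase that acts on a lysine of eEF2. It was at 2.95, 2.91, 3.13, 2.32 and 2.79 FPKM in controls and 3.27, 4.06, 3.28, 3.54 and 3.53 in A-PDK1KO hearts, from 60 to 108 reads per heart. The log2 fold change was 0.25 ± 0.08 (SE, adjusted p = 0.167 by limma). Alg1 and Gm15983 overlap the exons of Eef2kmt on the opposite strand. The eEF1A methyltransferase genes Eef1akmt2 and Eef1akmt4 rested on 10 to 43 and 11 to 26 reads per heart, so at this depth only large differences could be seen.

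**Figure D5:**
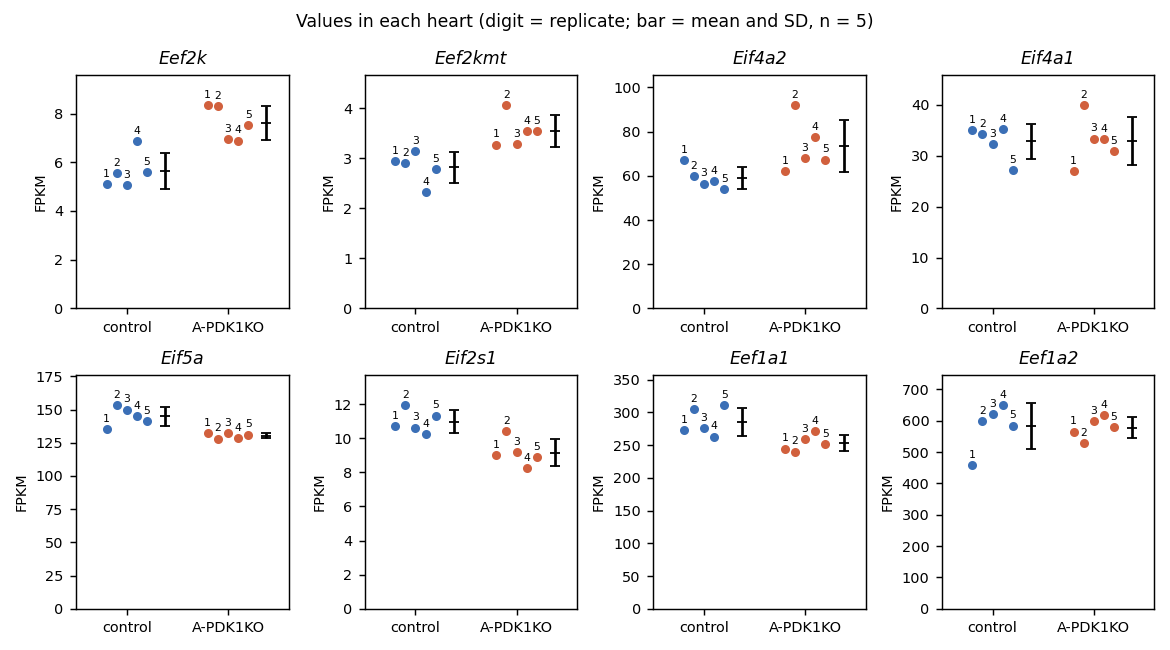
FPKM in each heart (digits are replicate numbers) with the mean and SD of 5 control and 5 A-PDK1KO hearts for 8 genes. Groups are separated for Eef2k and Eef2kmt (A-PDK1KO higher) and for Eif5a (A-PDK1KO lower), narrowly in each, and overlap for the other 5.

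Genes that act on these factors were taken from 5 further lists. Of the eIF4E-binding proteins and the eIF2 alpha kinases and phosphatases, 6 of 9 listed genes were tested and 0 were called. The smallest p there was that of Eif2ak1, the haem-regulated eIF2 alpha kinase, at 5.76 ± 0.423 and 6.77 ± 0.377 FPKM (limma adjusted p = 0.180). Of 8 factor kinases and mTORC1 genes 0 were called. Mknk2, a kinase of eIF4E, was at 60.3, 62.7, 58.5, 61.3 and 57.0 FPKM in controls and 65.1, 80.4, 71.7, 69.9 and 82.5 in A-PDK1KO hearts, without overlap. Its log2 fold change was 0.29 ± 0.07 (SE, adjusted p = 0.0540 by limma). Mknk2 was called under 4 of the 11 other settings, namely a minimum of 5 FPKM, quantile normalization, voom on recovered reads and the scaling without mitochondrially encoded and haemoglobin genes. It was also called without A-PDK1KO heart 1 (adjusted p = 0.0435), and over all settings and omissions its adjusted p was 0.0155 to 0.556.

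Among 13 tested initiation partners and recycling and release factors, 2 fell and 0 rose, where 0.871% of all genes tested were called lower and 1.21% higher. Tpt1, a TOP mRNA whose product binds elongation factors, was at 562, 544, 525, 541 and 548 FPKM in control hearts 1 to 5 and at 448, 436, 447, 464 and 482 FPKM in A-PDK1KO hearts 1 to 5. It fell from 544 ± 13.2 to 455 ± 17.8 FPKM (log2 fold change -0.26 ± 0.05 SE, adjusted p = 0.0220 by limma), every A-PDK1KO heart lying below every control. Pabpc4, a poly(A)-binding protein gene, was at 102, 95.9, 105, 109 and 103 FPKM in controls and 83.7, 91.1, 82.8, 91.6 and 82.8 in A-PDK1KO hearts. It fell from 103 ± 4.80 to 86.4 ± 4.54 FPKM (log2 fold change -0.25 ± 0.06 SE, adjusted p = 0.0447 by limma), also without overlap. Tpt1 did not pass under 5 of the 11 other settings and without control heart 5 or A-PDK1KO heart 1 or 3 (adjusted p up to 0.0636 among these omissions). Pabpc4 did not pass under 5 of the 11 settings and in 8 of the 10 omissions of a single heart, and passed without control heart 2 or A-PDK1KO heart 2.

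Of 5 tested genes for the modification of eIF5A and eEF2, 0 were called. The smallest p was that of Dph3, which supplies electrons for diphthamide synthesis on eEF2, at 11.1 ± 0.815 and 9.56 ± 1.05 FPKM (limma adjusted p = 0.281). Of 10 mitochondrial translation factor genes 0 were called, and the smallest p was that of Mtrf1l, a mitochondrial release factor, at 2.30 ± 0.315 and 3.03 ± 0.567 FPKM (limma adjusted p = 0.237). Of the 58 translation factor genes, 21 share a near-identical stretch with an annotated transcript of at least 1 other gene. Such a stretch had at least 95% identity over at least 200 bases, and the other gene need not be a copy of the whole. On the opposite strand, 16 of the 58 overlap another gene's exons. Values of genes in either set are uncertain to the extent that reads were split or shared. Neither such a stretch nor an overlapping gene was found for 22.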

How the data were processed

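Heart RNA of 10 mice, 5 per group by genotype label, was analysed. Per the labels' protocols, FastQC 0.11.7 was run on the paired-end reads. The submitters' processing notes name Trimmomatic 0.38, HISAT2 2.1.0, featureCounts 1.6.3 and mm10. Annotation and strand setting were not given in the sources used here. Deposited values are the authors' FPKM. With exon lengths from GENCODE mouse release 21, whole reads (within 0.05) were recovered for 98.4% of values and for all 58 genes. Recovered library sizes were 9249255 to 11384423 reads.

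Genes averaging at least 1 FPKM were tested on log2(FPKM + 1), with a pseudocount of 1, by limma 3.58.1 in R 4.3.3 (two-sided, empirical Bayes with trend, no covariate) and Benjamini-Hochberg adjustment over 9987 genes. Such log2 fold changes understate the change of low genes. Folds are ratios of mean FPKM. Ratios of 4 paralogue pairs were compared by exact permutation in Python 3.11.15. The labels number the mice within a group and name no batch. Members, gene lists, ratios and tests were chosen with earlier results of these data known, and promoter motifs after the promoters were seen.

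Among the 58 genes, values in every heart are given for called genes (there were 0), for the 8 highest, for the paralogue pairs and for the smallest p in each complex. Other genes described lie outside this rule, and only some of them are marked as chosen after their values were seen. From each further list the called genes or the smallest p are named, and Ppp1r15a besides. No pair of hearts within a group matched within sampling noise (chi-square per degree of freedom 4.62 to 16.6). Near-identical stretches were sought among annotated transcripts with BLAST+ 2.17.0. The limma step was tested on simulated data. Alternatives were a pseudocount of 0.1, no filter or a minimum of 5 FPKM, TPM, median-of-ratios or quantile scaling, scaling without mitochondrially encoded and haemoglobin genes, an atrial covariate, the 6 hearts with Myl7 under 10 FPKM, a replicate block, limma voom on recovered reads, and omission of each heart.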

Additional observations from a re-analysis of the deposited data

Results flagged for a closer look

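In 6 of 124 sets of 5 hearts (58 translation factor genes and the 4 paralogue ratios in each group), 1 heart stood apart from the others by Dixon's criterion, where chance alone gives about 1 in 20. Control heart 1 was low for Eif3b (22.7 FPKM, others 30.8 to 33.2), Eif3d (8.12 FPKM, others 10.1 to 10.4) and Eef2 (285 FPKM, others 353 to 378). Control heart 4 was high for Eif4g3 (4.94 FPKM, others 3.24 to 3.52). A-PDK1KO heart 2 was low for Eif3c (33.4 FPKM, others 39.7 to 42.2). A-PDK1KO heart 3 was high for Eef1d (17.7 FPKM, others 16.7 to 16.9). Control heart 1 also had the highest red cell markers, and A-PDK1KO heart 2 the most genes at 1 FPKM or more. Their part in these values was not tested.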

How the results depend on the processing

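The count of translation factor genes called was 1 instead of 0, Eef2k in each case, under the 6 settings and without the 1 heart that the report lists. Over omissions of 1 heart it was 0 to 1. The count over all genes, 208, was 62 on the TPM scale, 314 when the scaling omitted mitochondrially encoded and haemoglobin genes, 4 among the 6 hearts with Myl7 under 10 FPKM, and 57 to 150 over omissions. Of the calls, 220 were higher and 94 lower with that scaling, and 102 and 105 with median-of-ratios factors. The Eif4a2 to Eif4a1 log2 difference, 0.31, was 0.39 among the 6 hearts (adjusted p = 0.4, exact permutation), where 3 against 3 cannot go below p = 0.1, and 0.27 to 0.34 over omissions. The Eef1a2 to Eef1a1 difference was 0.10 to 0.24 over omissions. With the replicate block, the Eif4a2 to Eif4a1 difference was 0.31 (adjusted p = 0.25, exact permutation of signs), where 5 pairs cannot go below p = 0.0625. The block gave 153 calls over all genes, 0 of them translation factors. Same-numbered hearts deviated with correlations from -0.12 to 0.09. Paired mice need not deviate alike, so these values cannot decide whether the numbers pair the mice, which the labels do not say. Of the 58 genes, 10 changed sign with quantile normalization, and 0 of those had an unadjusted p under 0.05 in the main test. The cause of these changes was not tested.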
